A study of Saccharomyces cerevisiae with 24 samples.

Results

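The comparison described here sets gene levels at 210 min of the yeast metabolic cycle against the mean of the 2 samples before it, 180 and 200 min. It takes 3 of the 12 RNA-seq libraries, and the 5979 of 6562 genes whose mean deposited value over those 12 libraries was at least 500, which is 10 RPKM, or reads per kilobase scaled to library size, as used here. The yeast was Saccharomyces cerevisiae of the strain CEN.PK in minimal medium, and the labels name no treatment or mutation. The series has 24 samples, 12 of RNA-seq and 12 of MNase-seq at the same times from 0 to 260 min, and the nucleosome maps of MNase-seq are not analysed here.

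In the yeast metabolic cycle, dense cultures with little glucose alternate, in step, between stretches of high and of low oxygen use. In the slow, low-oxygen-use part, cells hold stores such as glycogen and trehalose and express genes of quiescence and stress. In the short oxidative part that follows, genes of ribosome production, amino acid synthesis and nucleotide synthesis are switched on together. Ribosome production starts in the nucleolus, where RNA polymerase I makes the ribosomal RNA precursor and a large set of assembly factors and small nucleolar RNPs fold, cut and modify it. The sample at 210 min stands 10 min before the 220 min sample, at which most of the genes found higher at 210 min had their highest level.

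Each time had 1 library, and 180 and 200 min are different times, so no value has a replicate and no p-value is given. The difference is log2(RPKM + 1) at 210 min minus log2 of the mean RPKM of 180 and 200 min plus 1. A gene is counted as higher or lower where it was past 2-fold and beyond both earlier values. The counting standard error (SE), from estimated reads, covers counting error only. The distance between 180 and 200 min is the only other measure of spread. RPKM is relative to the total of a library, so a difference is a difference in share. In these bulk samples more RNA per cell and more cells holding the RNA cannot be told apart.

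At 210 min, 147 genes were higher, 2.46% of the genes compared, and 35 were lower, 0.585%. The higher genes included many factors of ribosome assembly and enzymes of guanine nucleotide, CTP and S-adenosylmethionine synthesis. The lower genes included glycogen and trehalose enzymes and genes of stationary phase. Higher genes made up 80.8% of the calls. That share was 69.8% when libraries were scaled by median ratios (111 higher, 48 lower) and 65.0% after quantile normalization (128 higher, 69 lower). Over all genes the median difference was 0.07 with an SD of 0.40, and quantile normalization brought that median to -0.03. Between 180 and 200 min the SD over genes was 0.24, and 7 genes (0.117%) were past 2-fold above at 200 min and 3 (0.0502%) below.

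**Figure D1:**
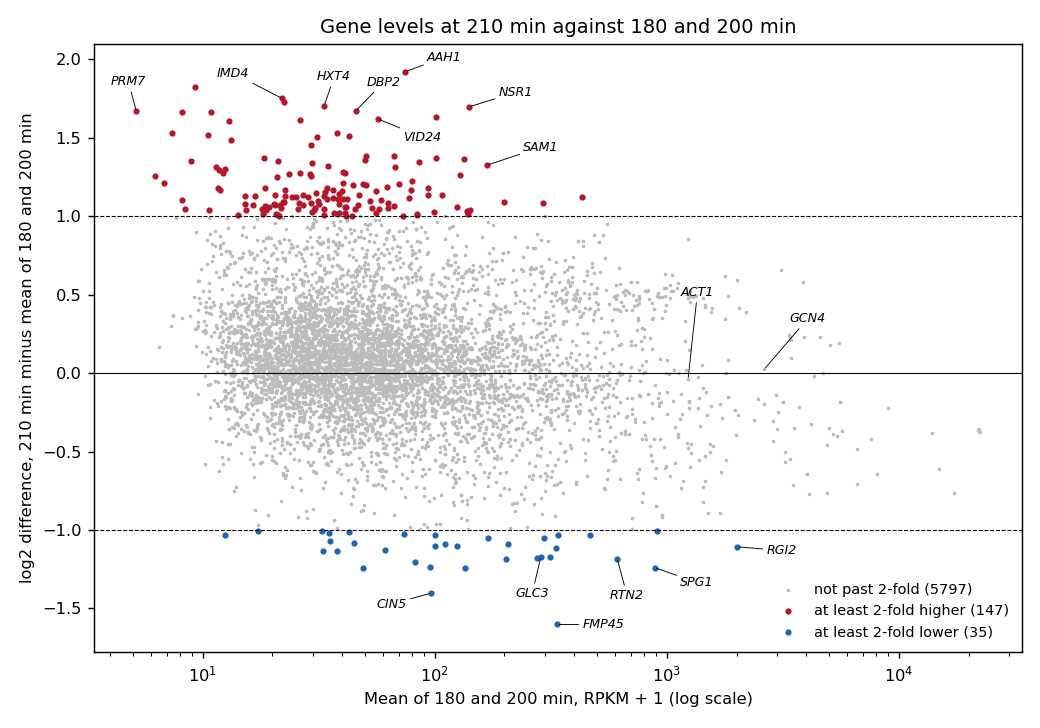
Each point is 1 of the 5979 genes, placed by its mean RPKM + 1 at 180 and 200 min (log scale) and by its log2 difference at 210 min. Dashed lines mark 2-fold; 147 genes lie above (red) and 35 below (blue), and ACT1 and GCN4 lie near 0.

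The same rule gave few genes in the windows before. At 180 min against the mean of 110 and 140 min it gave 9 higher (0.151%) and 29 lower (0.485%), and at 200 min against 140 and 180 min it gave 10 higher (0.167%) and 15 lower (0.251%). One step later, at 220 min against 200 and 210 min, it gave 598 higher (10.0%) and 951 lower (15.9%). These windows share libraries and span unequal times. The count of higher genes at 210 min therefore lay between the quiet windows before it and the large step after it. That of lower genes, 35 (0.585%), was close to the 29 (0.485%) at 180 min. Higher genes outnumbered the lower ones at 210 min but not at 220 min.

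**Figure D2:**
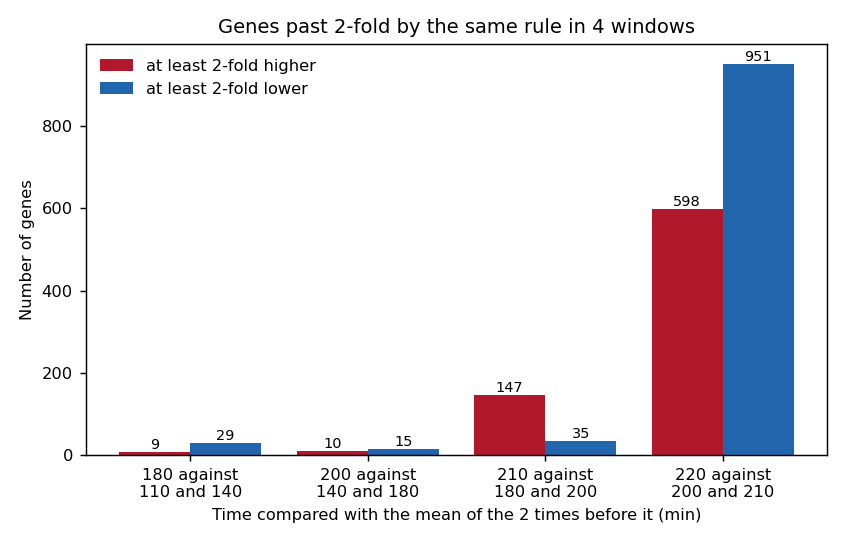
Bars give the number of genes at least 2-fold higher (red) or lower (blue) at each time than the mean of the 2 sampled times before it. The count of higher genes is 9, 10, 147 and 598 in the 4 windows and that of lower genes 29, 15, 35 and 951.

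The choice of reference mattered. Against 200 min alone, 88 genes were higher (1.47%) and 23 lower (0.385%). Against 180 min alone 245 of the 5979 genes were higher and 59 lower, the background for the list counts against 180 min below. For 120 of the 147 higher genes 200 min was already above 180 min, as it was for 68.3% of all genes. For 29 of the 35 lower genes 200 min was already below 180 min, where 1895 of all 5979 genes were. A straight line through 180 and 200 min carried on to 210 min was an alternative reference added after the data were seen. With it 81 genes were higher, 54 of them among the 147, and 33 were lower, 13 of them among the 35.

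Differences were moderate in size. The median of the 147 was 1.13 on the log2 scale, 19 reached 1.5, and no gene reached 4-fold in either direction. Counting SEs could be made for 128 of the 147 higher genes, with a median of 0.097 and a largest of 0.56. For 30 of the 35 lower genes the median was 0.097 and the largest 0.59, and 29 of these 30 were at least 2 SE from 0.

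The gene furthest above was AAH1, the adenine deaminase that turns adenine into hypoxanthine (YNL141W, chromosome XIV, 359596 to 360639). It stood at 54.6 RPKM at 180 min, 92.9 at 200 min, 282 at 210 min and 1288 at 220 min, its highest level. Both earlier values were well below 210 min, and the log2 difference was 1.92 (counting SE 0.064), or 3.79-fold. IMD4, an inosine monophosphate dehydrogenase of guanine nucleotide synthesis (YML056C, chromosome XIII, 162194 to 164176), stood at 16.9, 25.1, 73.0 and 360 RPKM at the same 4 times, a log2 difference of 1.75 (SE 0.086); it overlaps another annotated gene, so some of its reads may be shared. GUA1, the GMP synthase that acts next, stood at 106, 150, 309 and 1021 RPKM, a log2 difference of 1.26 (SE 0.044). These were the 3 of 24 purine and guanine genes past 2-fold. The median of that list was 0.53, and its ADE genes, of the main purine route, lay between -0.35 for ADE16 and 0.88 for ADE12. Against 180 min alone 6 of the 24 were past 2-fold.

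NSR1, a nucleolar RNA-binding protein needed for ribosomal RNA processing (YGR159C, chromosome VII, 806412 to 807656), stood at 99.0 RPKM at 180 min, 182 at 200 min, 457 at 210 min and 1689 at 220 min. Its 200 min value was already 0.87 above 180 min on the log2 scale, and its log2 difference at 210 min was 1.70 (SE 0.044). The entry with the next systematic name, YGR160W, was at 1.63 and was not in the annotation, so some reads may be shared. DBP2, an RNA helicase with a part in ribosome assembly (YNL112W, chromosome XIV, 413639 to 416281), stood at 38.0, 51.5, 145 and 414 RPKM, a log2 difference of 1.67 (SE 0.053). RSA4, a factor of late 60S assembly, went the same way from a lower level, with 11.9, 12.7, 36.1 and 117 RPKM and a log2 difference of 1.48 (SE 0.13). Its 180 and 200 min values nearly coincided, so nearly all of the distance lay between 200 and 210 min.

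Of 73 factors of 60S subunit assembly, 25 were higher and none lower, with 7 past 2-fold against 200 min alone and 44 against 180 min alone. All 73 were above 0, also under median-ratio and quantile scaling, and the median difference was 0.88 with an SD of 0.25 over members. Their median level was 41.8 RPKM at 180 min, 55.6 at 200 min, 91.0 at 210 min and 195 at 220 min. Besides DBP2 and RSA4, MAK16, also of 60S assembly, stood at 40.5, 55.6, 112 and 335 RPKM, a log2 difference of 1.20 (SE 0.093), or 0.996 against 200 min alone. The smallest difference of the list was that of SSF2, 0.34, whose close relative SSF1 was at 1.11.

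Of 60 factors of the small subunit processome and 40S assembly, 13 were higher and none lower, with a median of 0.83. Against 200 min alone 7 were past 2-fold and against 180 min alone 25 were. UTP5, a subunit of the part of the processome that joins the precursor first, stood at 25.0, 32.0, 73.5 and 206 RPKM at 180, 200, 210 and 220 min, a log2 difference of 1.34 (SE 0.081). NOC4, a 40S assembly factor, stood at 20.2, 30.1, 62.2 and 136 RPKM, a log2 difference of 1.27 (SE 0.093). All 60 were above 0, and under median-ratio scaling all but 1 were, ESF1, whose difference was 0.04 as reported. Of the 20 snoRNP core and nucleolar RNA-binding genes 6 were higher (30.0%), with a median of 0.81. Against 200 and 180 min alone 4 and 10 of the 20 were past 2-fold. The 6 included SNU13, a core protein of box C/D particles, at 92.1, 108, 260 and 828 RPKM, a log2 difference of 1.37 (SE 0.099). RVB1 and RVB2, the ATPases that serve several chromatin complexes as well as snoRNP assembly, were at 0.08 and 0.16.

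Taken as 1 set, these 3 lists hold 153 genes, of which 44 were higher, or 28.8% against 2.46% of all genes. Those 44 are part of the 147 higher genes. Against 200 min alone 18 of the 153 were higher, where 88 of all 5979 genes were. Against 180 min alone 79 of the 153 were higher, where 245 of all 5979 were. None of the 153 was lower in either. The lists were chosen with earlier results of these data known, and no test of the set was made.

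Among 30 subunits and factors of RNA polymerases I and III, 4 were higher and none lower, with a median of 0.63; against 200 min alone 2 were past 2-fold and against 180 min alone 7. RRN11, a subunit of the core factor that brings RNA polymerase I to the ribosomal DNA promoter, stood at 8.46 RPKM at 180 min, 7.44 at 200 min, 21.8 at 210 min and 64.5 at 220 min, a log2 difference of 1.35 (SE 0.16). RPA135, the second largest subunit of the polymerase, stood at 40.3, 50.9, 96.7 and 257 RPKM, a log2 difference of 1.07 (SE 0.049), and did not pass 2-fold against 200 min alone, with 0.91. RRN6, also of the core factor, was at 0.27, and the upstream factor genes RRN10 and RRN5 were at -0.41 and -0.08. Of 33 genes of transfer RNA modification, 4 were higher (12.1%), with a median of 0.54. Against 200 and 180 min alone 1 and 8 of the 33 were past 2-fold. TRM11, the catalytic subunit of a tRNA guanine methyltransferase, stood at 25.5, 34.8, 87.4 and 312 RPKM, or 2.84-fold above the earlier mean (SE 0.093 on the log2 scale), and TRM5, another tRNA methyltransferase, had a log2 difference of 1.13 (SE 0.11), or 0.97 against 200 min alone.

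**Figure D3:**
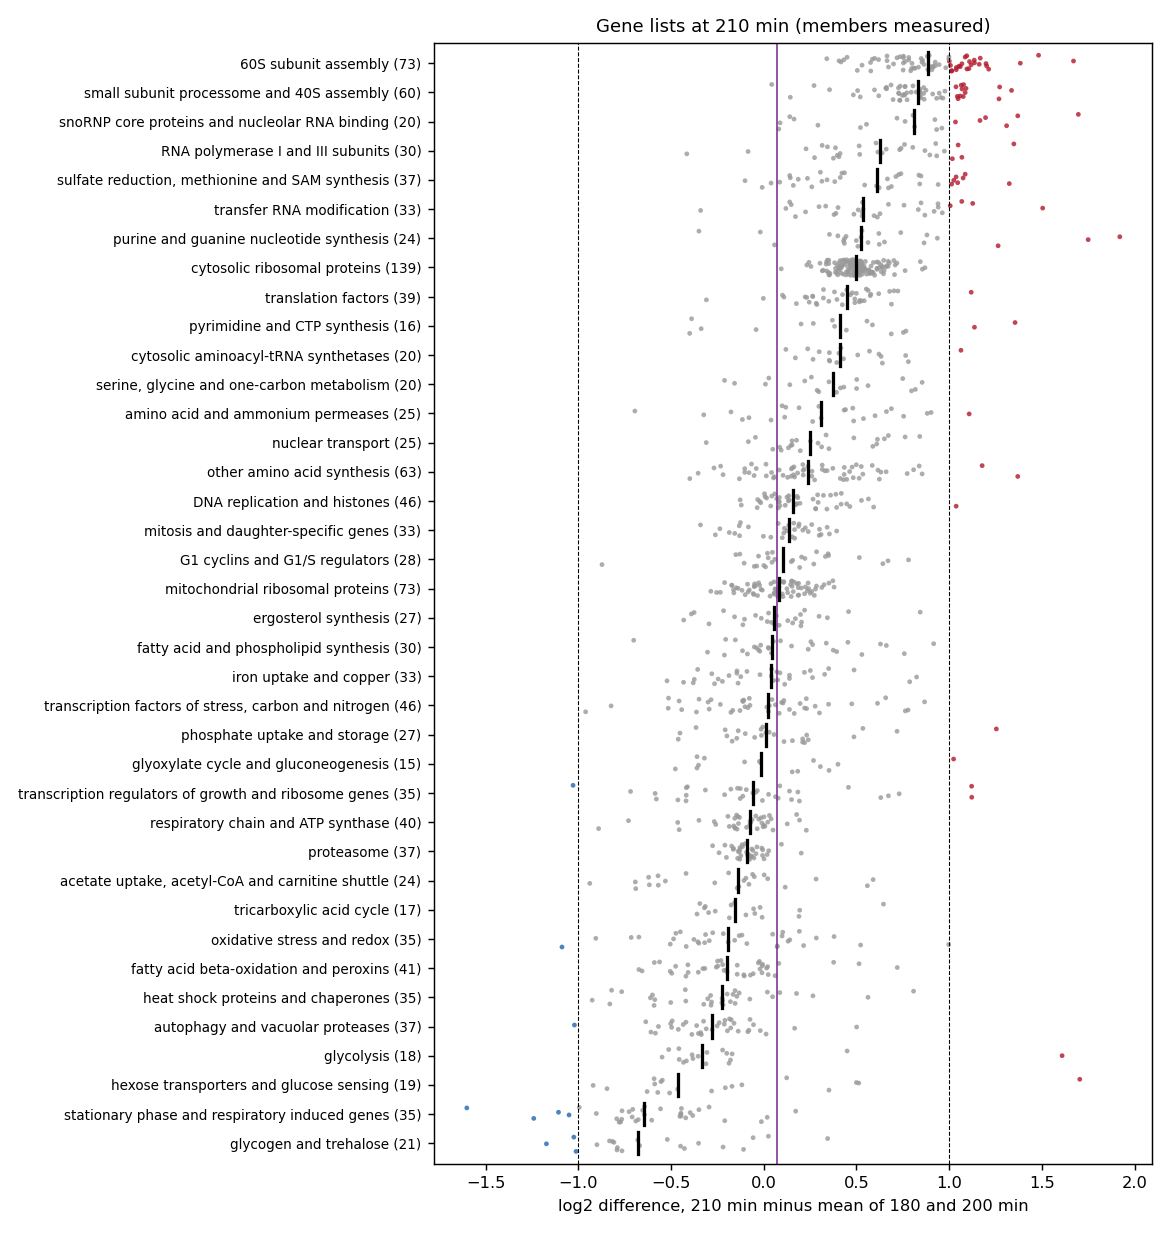
Each point is a gene of 1 of the 38 lists, placed by its log2 difference at 210 min, with the number of members in brackets; black bars are list medians, the purple line is the median of all genes (0.07) and dashed lines mark 2-fold. Medians run from 0.88 for 60S subunit assembly to -0.68 for glycogen and trehalose.

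The cytosolic ribosomal proteins differed from their assembly factors in size. None of the 139 was past 2-fold, yet all 139 were above 0 under each of the 3 scalings, with a median of 0.50 and an SD of 0.12 over members. Their median level was 457 RPKM at 180 min, 497 at 200 min, 678 at 210 min and 1067 at 220 min, and it was highest at 230 min with 1489 RPKM, as it was for the snoRNP list with 272 RPKM, whereas the assembly lists of both subunits had their highest median level at 220 min. The smallest difference was that of RPL41A, 0.09, and the largest that of RPS9A, 0.87. Most ribosomal proteins have 2 nearly identical genes, and reads could be split between them in ways not given in the sources used here. In the 73 mitochondrial ribosomal proteins the median was 0.08, near that of all genes, and none was past 2-fold.

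Other parts of the translation machinery lay between these. Of 39 translation factors 1 was higher, YEF3, elongation factor 3 of fungi, at 362, 495, 933 and 2727 RPKM at 180, 200, 210 and 220 min, and the list median was 0.45. That is 2.56% of the list, close to the 2.46% of all genes. Of 20 cytosolic aminoacyl-tRNA synthetases 1 was higher (5.0%), KRS1 for lysine with a log2 difference of 1.06, and the median was 0.41. Both were just under 2-fold against 200 min alone, with 0.91 for YEF3 and 0.96 for KRS1. None of 25 nuclear transport genes was higher, with a median of 0.25. The genes named here and below from lists with fewer than 3 genes past 2-fold, and the related genes set beside them, were chosen after their values were seen.

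In sulfate reduction and methionine synthesis, 7 of 37 genes were higher and none lower, with a median of 0.61. Of these 7, SUL2 imports sulfate, MET3, MET14 and MET16 activate and reduce it, MET1 makes the siroheme that sulfite reductase needs, MUP1 imports methionine and SAM1 makes S-adenosylmethionine. SAM1 stood at 130 RPKM at 180 min, 205 at 200 min, 420 at 210 min and 1713 at 220 min, a log2 difference of 1.32 (SE 0.044). MET14, the adenylylsulfate kinase, started higher and rested on the 180 min value, with 271, 316, 624 and 1229 RPKM and a log2 difference of 1.09 (SE 0.048), or 0.98 against 200 min alone. The regulators of the pathway stood closer to the median of all genes, with MET4 at 0.19, MET28 at 0.16 and CBF1 at 0.14. Under median-ratio scaling 3 of the 37 were past 2-fold and under quantile normalization 4 were. Against 200 min alone 3 were, and against 180 min alone 11.

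Of 63 other amino acid synthesis genes 2 were past 2-fold, LEU9 and ARO7, or 3.17%, with a list median of 0.24. None of 20 genes of serine, glycine and one-carbon metabolism was, with a median of 0.37. Of 25 amino acid and ammonium permeases 1 was higher, or 4.0%, near the 2.46% of all genes. That was GNP1, a glutamine permease, at 33.1, 45.6, 85.9 and 284 RPKM at 180, 200, 210 and 220 min. Its log2 difference was 1.11, or 0.90 against 200 min alone. GCN4, the activator of amino acid synthesis genes, stood at 2739, 2529 and 2681 RPKM at 180, 200 and 210 min, so that its RNA level at 210 min lay between the 2 earlier values. Of 16 pyrimidine genes 2 were higher (12.5%), URA7 and URK1. URA7, a CTP synthase, stood at 41.0, 56.9, 127 and 452 RPKM, a log2 difference of 1.36 (SE 0.066).

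In carbon metabolism a few single genes stood apart from their lists. HXT4, a hexose transporter (YHR092C, chromosome VIII, 287081 to 288811), stood at 29.9 RPKM at 180 min, 35.0 at 200 min, 108 at 210 min, 363 at 220 min and 369 at 230 min, a log2 difference of 1.70 (SE 0.076). It was the 1 gene of 19 hexose transport and glucose sensing genes past 2-fold, or 5.26% against 2.46% of all genes. The list median was -0.46. HXT5, the transporter of slow growth, stood at 715, 698, 373 and 77.0 RPKM at 180, 200, 210 and 220 min, a log2 difference of -0.92. HXT2 was at 0.51, HXT3 at -0.46, and HXT6 and HXT7, which share most of their sequence and cannot be told apart with certainty, at -0.63 and -0.55. VID24, which targets gluconeogenic enzymes for degradation, was also among the furthest above, with 45.6, 66.7, 174 and 473 RPKM and a log2 difference of 1.62 (SE 0.074).

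PFK27, a kinase that makes fructose 2,6-bisphosphate, the activator of glycolysis, stood at 22.2, 28.4, 79.2 and 230 RPKM at 180, 200, 210 and 220 min, a log2 difference of 1.61 (SE 0.10). PFK26, which makes the same compound, stood at 120, 99.9, 76.9 and 15.6 RPKM, a log2 difference of -0.51 (SE 0.055). Of the pair, PFK26 was the higher until 200 min and the 2 genes met at 210 min. PFK27 was the 1 gene of 18 glycolysis genes past 2-fold, or 5.56%, and the list median was -0.33. Acetate uptake (-0.14), the tricarboxylic acid cycle (-0.16), beta-oxidation (-0.20) and the respiratory chain (-0.08) had medians below that of all genes and no gene past 2-fold.

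Related genes also parted elsewhere. IMD4 was at 1.75, but IMD3 was at 0.62 and IMD2 at 0.43, 3 genes with the same reaction and similar sequence. LEU9 and LEU4 both make isopropylmalate for leucine synthesis: LEU9 stood at 32.8, 34.0, 76.9 and 158 RPKM at 180, 200, 210 and 220 min, a log2 difference of 1.18, and LEU4 at 752, 779, 739 and 563 RPKM, a log2 difference of -0.05. The CTP synthases URA7 and URA8 were at 1.36 and -0.34. The transketolases TKL2 and TKL1 were at -1.17 and 0.74, and the glycerol phosphatases GPP2 and GPP1 at 1.37 and 0.88. These pairs were chosen for their values, which are a description.

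**Figure D4:**
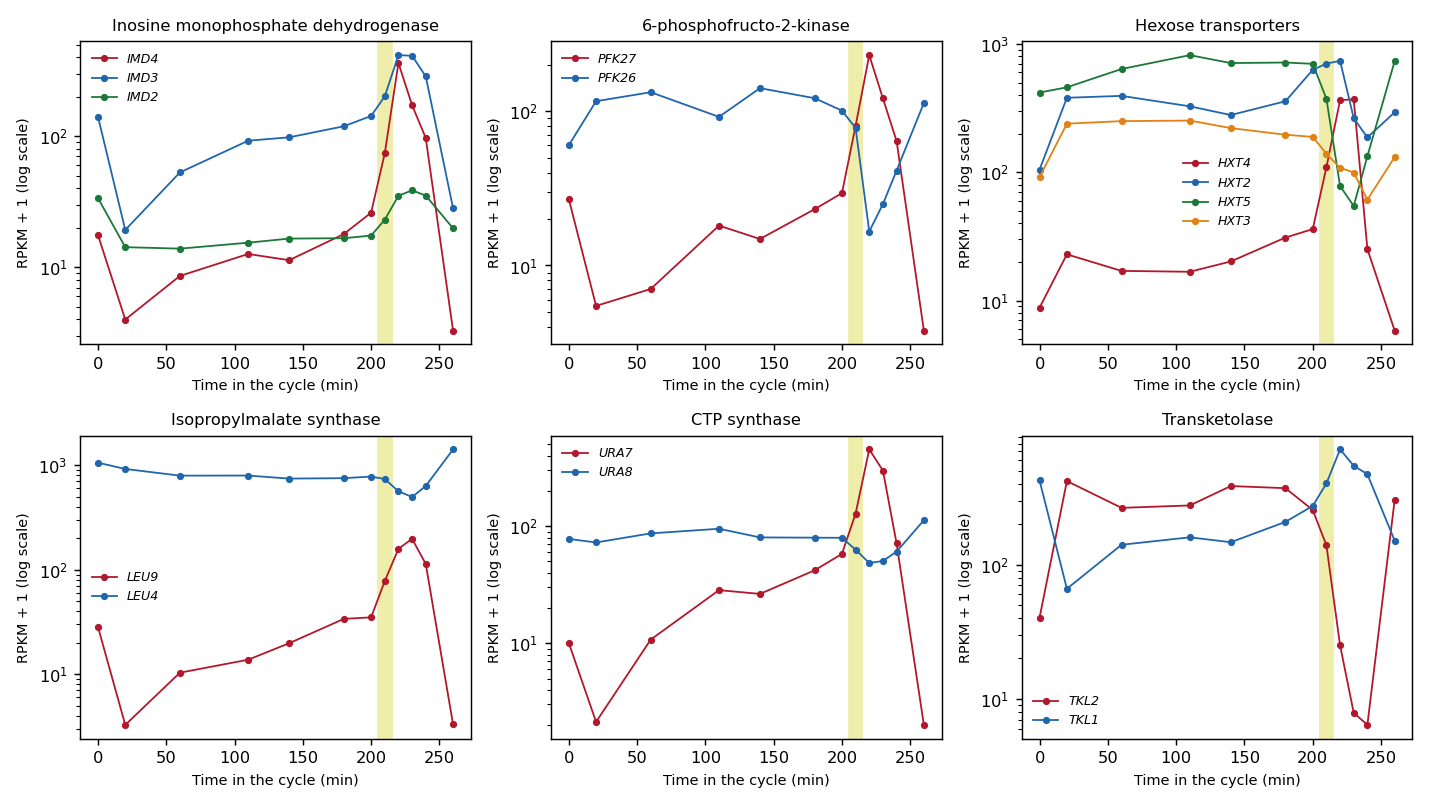
Lines give RPKM + 1 (log scale) of related genes in all 12 libraries, 1 panel for each of 6 sets, with 210 min shaded. In 5 sets the gene past 2-fold above at 210 min (IMD4, PFK27, HXT4, LEU9 or URA7) started below a relative, and in the transketolase set TKL2 is below its 180 and 200 min levels at 210 min while TKL1 is above.

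Regulators of growth were mixed. Of 35 genes of the Ras, protein kinase A, TOR and ribosome gene regulators, 2 were higher (5.71%), IFH1 and PDE2, and the median was -0.06. IFH1, the coactivator of ribosomal protein genes, stood at 25.2, 23.1, 53.7 and 140 RPKM at 180, 200, 210 and 220 min, a log2 difference of 1.12 (SE 0.070), while its DNA-bound partner FHL1 was at 0.14. SFP1, an activator of ribosome production genes, stood at 50.4, 50.4 and 57.8 RPKM at 180, 200 and 210 min, a log2 difference of 0.19 (SE 0.074). PDE2, the high-affinity cAMP phosphodiesterase, had a log2 difference of 1.12, or 0.78 against 200 min alone, and PDE1, the low-affinity one, of -0.11.

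The genes furthest below at 210 min were FMP45 and CIN5. FMP45, a plasma membrane protein of the SUR7 family (YDL222C, chromosome IV, 60872 to 61801), stood at 358 RPKM at 180 min, 314 at 200 min, 110 at 210 min and 15.6 at 220 min, a log2 difference of -1.60 (SE 0.070). It was highest at 260 min with 1005 RPKM. CIN5, a transcription factor of the Yap family (YOR028C, chromosome XV, 383533 to 384420), stood at 103, 87.6, 35.4 and 5.99 RPKM, a log2 difference of -1.40 (SE 0.13). For both, 210 min lay below the 2 earlier values, which differed from each other by -0.19 and -0.23 on the log2 scale.

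**Figure D5:**
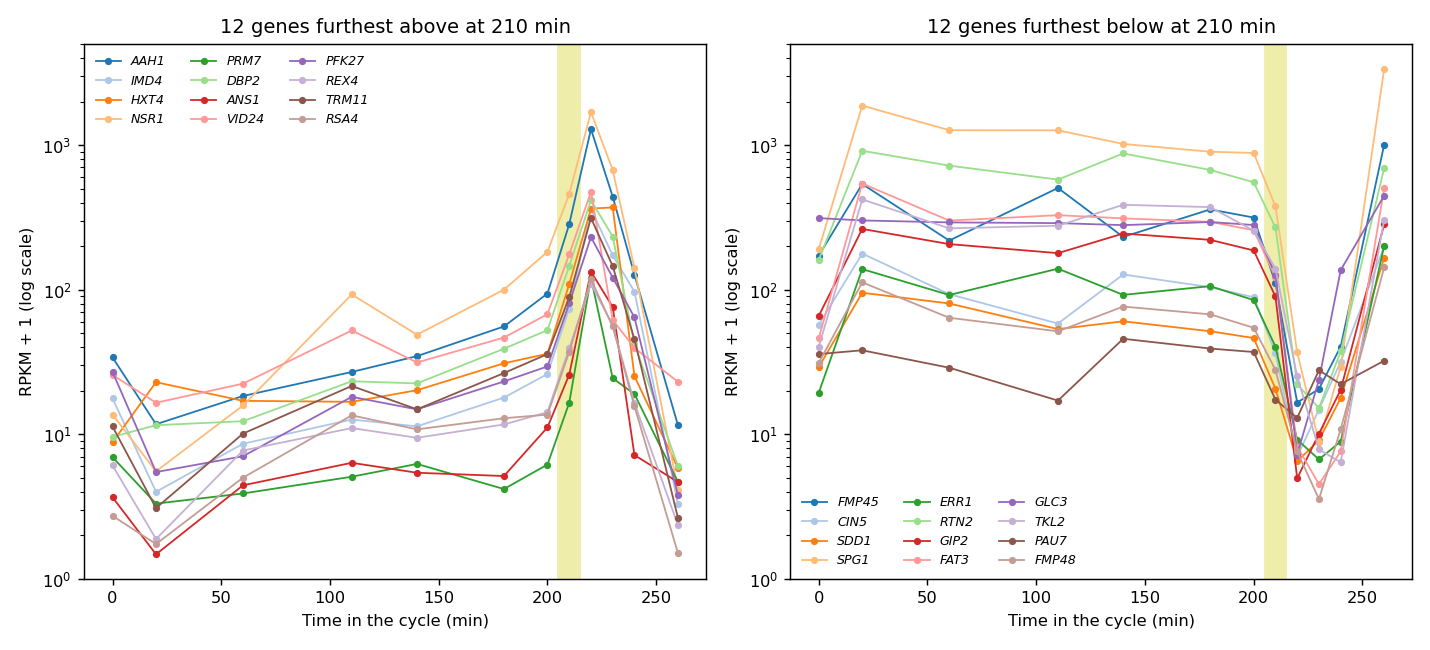
Lines give RPKM + 1 (log scale) of the 12 genes with a symbol furthest above (left) and furthest below (right) at 210 min, in all 12 libraries, with 210 min shaded. On the left AAH1 and NSR1 reach 1288 and 1689 RPKM at 220 min; on the right FMP45 goes from 314 RPKM at 200 min to 15.6 at 220 min.

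Of 21 glycogen and trehalose genes 3 were lower and none higher, with a median of -0.68, and 1 and 5 were past 2-fold against 200 and 180 min alone. GLC3, the glycogen branching enzyme (YEL011W, chromosome V, 133120 to 135234), was nearly level up to 200 min, with 292 RPKM at 180 min and 279 at 200 min, and then stood at 126 at 210 min and 6.23 at 220 min, a log2 difference of -1.17 (SE 0.044). TSL1, a regulatory subunit of trehalose synthase, stood at 85.2, 59.8, 35.1 and 2.18 RPKM, a log2 difference of -1.02 (SE 0.067). It was below its 180 min level already at 200 min, and against 200 min alone its difference was -0.75. GSY1, a glycogen synthase, was at -1.01, or -0.95 against 200 min alone, and its partner GSY2 at -0.82. GIP2, a putative regulatory subunit of the phosphatase that acts on glycogen synthase, stood at 220, 186, 88.7 and 3.95 RPKM, a log2 difference of -1.18 (SE 0.060). The breakdown enzyme GPH1, glycogen phosphorylase, was at -0.79. Of the 21, 19 were below 0 and 2 above, the highest being PGM1 with 0.34.

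Of 35 genes of stationary phase and respiratory growth 4 were lower (FMP45, SPG1, RGI2 and SOL4), or 11.4%. None was higher, and the median was -0.64. SPG1, named for stationary phase, stood at 898 RPKM at 180 min, 881 at 200 min, 376 at 210 min and 35.8 at 220 min, a log2 difference of -1.24 (SE 0.070). RGI2, induced in respiratory growth, stood at 2295, 1740, 936 and 39.3 RPKM, a log2 difference of -1.11 (SE 0.034), or -0.89 against 200 min alone. RGI1, its relative, stood at 148, 109, 74.7 and 9.80 RPKM, a log2 difference of -0.78 (SE 0.12) that did not pass 2-fold. The 2 lists of stores and quiescence together held 56 genes, of which 7 were lower, or 12.5% against 0.585% of all genes, and 4 were above 0. Of the 56, 4 were lower against 200 min alone, where 23 of all 5979 genes were. Against 180 min alone 10 of the 56 were lower, where 59 of all 5979 were. For heat shock genes the median was -0.22 with none past 2-fold, and the most abundant of them, HSP12 and HSP26, were at -0.77 and -0.61. Of 35 oxidative stress genes 1 was lower (2.86%), CTT1, the cytosolic catalase. CTT1 stood at 233, 179, 96.5 and 11.8 RPKM, a log2 difference of -1.09, or -0.89 against 200 min alone.

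Lower genes outside these groups included RTN2, an endoplasmic reticulum shaping protein, at 671, 552, 268 and 21.2 RPKM at 180, 200, 210 and 220 min, FAT3 at 293, 256, 121 and 7.22 RPKM, and TKL2, a transketolase, at 371, 255, 139 and 24.1 RPKM. TKL2 had a log2 difference of -1.17, or -0.87 against 200 min alone. SDD1, ERR1, PAU7 and FMP48 were also among the 12 genes with a symbol furthest below, with log2 differences of -1.24, -1.24, -1.13 and -1.13. FMP48 was at -0.97 against 200 min alone. ERR1 and PAU7 belong to families with near-identical members, so their reads may be shared. PAU7 rests on few reads, with a counting SE of 0.42.

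Higher genes outside the groups above included more of ribosome assembly. PRP43, an RNA helicase of both splicing and ribosome assembly, stood at 25.4, 31.5, 79.4 and 255 RPKM at 180, 200, 210 and 220 min, and RRB1, the chaperone of a ribosomal protein, at 62.5, 90.2, 167 and 457 RPKM, or 0.88 on the log2 scale against 200 min alone. REX4, a putative exonuclease linked to ribosomal RNA processing, had a log2 difference of 1.60 (SE 0.17). PRM7 and ANS1 were among the 12 furthest above from very low levels. PRM7 stood at 3.18 and 5.17 RPKM before and 15.5 at 210 min, and ANS1 at 4.14, 10.1 and 24.8 RPKM, with counting SEs of 0.16 and 0.28. RSR1, the bud site GTPase, was past 2-fold with 1.32. In the division lists the medians were 0.10 for G1 genes, 0.16 for replication and histones and 0.13 for mitosis. The 1 gene past 2-fold was ORC3, or 2.17% of the replication and histone list, and it was at 0.87 against 200 min alone. CLN3, the cyclin that starts G1 exit, stood at 31.3, 27.6 and 46.5 RPKM at 180, 200 and 210 min, a log2 difference of 0.64 (SE 0.095), and WHI5, the inhibitor it acts against, at 17.0, 14.7 and 8.18 RPKM, a log2 difference of -0.87 (SE 0.25).

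The genes past 2-fold at 210 min were followed over all 12 libraries. These also set the limit on the mean level, through which a gene low at 180 and 200 min could enter by its later level, so the counts are a description. Of the 147 higher genes, 135 were highest at 220 min, 10 at 230 min, 1 at 240 min and 1 at 0 min, where 17.9% of all genes compared were highest at 220 min. Their lowest level was at 260 min for 95 and at 20 min for 40, against 20.3% and 26.9% of all genes. Their median level was 28.3 RPKM at 180 min, 35.7 at 200 min, 74.0 at 210 min, 169 at 220 min, 106 at 230 min, 49.2 at 240 min and 3.67 at 260 min. Of the 35 lower genes, 19 were highest at 260 min and 9 at 20 min, and 15 were lowest at 220 min, 14 at 230 min and 4 at 240 min. Over all genes compared, the shares were 16.7% with the highest level at 260 min and 21.9% with the lowest at 220 min. Their median level was 136 RPKM at 180 min, 110 at 200 min, 51.3 at 210 min, 9.03 at 220 min, 8.28 at 230 min, 19.3 at 240 min and 198 at 260 min. Against the same mean of 180 and 200 min, which both differences share, the median log2 difference at 220 min was 2.45 for the higher genes, -3.52 for the lower genes and -0.10 for all genes.

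Some genes past 2-fold lie side by side. Among neighbouring annotated genes that were both compared, 7 pairs had both genes higher. In 3 of them the genes point away from each other, BMT2 and MAK5 with 278 bases between them, NSA2 and LCP5 with 301, and SRO9 and GFD2 with 347. Most of these genes act in ribosome assembly, whereas SRO9 binds RNA and is linked to translation. Divergent pairs with at least 1 higher gene numbered 59, and both genes were higher in 3 of these pairs, or 5.08%. Both were higher in 3 of 103 such tandem pairs (2.91%) and 1 of 68 such convergent pairs (1.47%). These are few pairs. A share of pairs with both genes higher is not the same measure as the 2.46% of single genes, so the 2 cannot be set side by side. The convergent pair was VTS1 and PDE2. Because strand was not marked, reads past the end of a convergent gene cannot be told from those of its neighbour.

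The limit on the mean level fell between genes of mixed differences. Just inside it were MND1 with 0.36, HXT16 with 0.12 and YHR218W with -0.06, and just outside were HFM1 with -0.24, ATF2 with 0.91 and DIT2 with -0.49. HAP4, the activator of respiratory genes, stood at 169, 161 and 177 RPKM at 180, 200 and 210 min, and ACT1, actin, at 1274, 1196 and 1203 RPKM. Both were close to level across the 3 times. The share of all signal held by the top 10 genes was 10.2% at 180 min, 8.86% at 200 min and 7.61% at 210 min.

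Of the 147 higher genes 118 had a symbol, 128 were in the annotation and 76 were in 1 of the 38 lists. The 19 higher and 5 lower entries outside the annotation have no position here. Several have names next to a gene past 2-fold and similar differences, such as YBL039C-A (1.39) by URA7 (1.36) and YBR116C (-1.11) by TKL2 (-1.17). Some reads may thus be counted in both entries of such a pair, which was not tested. Without genes that overlap another annotated gene and without unannotated ones, an alternative added after the data were seen, 125 genes were higher and 28 lower. Estimated depth was 4600000 reads at 180 min, 5490000 at 200 min and 4710000 at 210 min, within the 4380000 to 5980000 of the 12 libraries.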

How the data were processed

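Hot phenol was used to extract RNA, and libraries were prepared with an NEBNext Ultra RNA kit, which leaves strand unmarked, per the labels' protocols. The submitters' processing notes name Bowtie2 and build R64. How reads were counted, and on which annotation, is not given in the sources used here. Their main deposited table holds signal for every gene in each library, under the heading RKPM. A second deposited table holds the fraction of each gene's highest library. It was within 2.22e-16 of the first table after division by gene maxima (6562 genes) and was not used further.

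Multiplied by length in kilobases, the signal of a library added up to between 41400000 and 44800000, too much for RPKM. For each library the step was taken at which most low values came out as whole reads (within 0.04%), which was 23 of 96 at 210 min, 18 of 111 at 200 min and 27 of 110 at 180 min. The other low values can hold part of a read. A read length of 50 bases then put low values closest to whole bases (mean distance 0.019 for 587 values, 0.18 for 51 bases). Division by 50 then gave the values called RPKM here. Depth was estimated from the same steps as 4380000 to 5980000 reads per library. At 210 min 1 read in a gene of 1 kilobase equals 0.212 RPKM. Counting SEs were made from these estimated reads and cover counting error only.

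Symbols and coordinates came from a RefSeq table of build R64, which matched 5891 of the 6562 genes. Each column carries the number of the time point in its sample's title. The pseudocount of 1 RPKM makes differences of low genes too small. The 38 lists, the comparison and its members were chosen with earlier results of these data known. The 43 genes named by rule are the 12 with a symbol furthest above and the 12 furthest below, the 2 furthest in each list with at least 3 genes past 2-fold in 1 direction, and 11 taken whatever their values. One gene's result is not reported here. Promoter motifs were planned, but promoter sequence was not used here. Alternatives changed the pseudocount, the limit on low values, the scaling between libraries, the reference and the call rule. Python 3.11.15, numpy 2.4.6, pandas 2.3.3 and matplotlib 3.10.9 were used.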

Additional observations from a re-analysis of the deposited data

How the results depend on the processing

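No paired analysis was possible because each time had 1 library. The reported counts were 147 genes higher and 35 lower. With each earlier time left out in turn, the count was between 88 and 245 for higher genes and between 23 and 59 for lower genes, the smaller ones without 180 min. A pseudocount of 5 RPKM gave 94 higher. Without a limit on low values 62 genes were lower, and with a limit at a deposited value of 50, 57 were. With a limit of 2500, 76 were higher. Quantile normalization gave 69 lower. Asking for 2-fold from each of 180 and 200 min gave 74 higher and 14 lower, 1.5-fold gave 609 and 231, and 4-fold gave 0 and 0. The line through 180 and 200 min, added after the data were seen, gave 81 higher. Why these counts moved was not tested, but the direction of some follows by construction. A higher fold, a shorter gene table, a larger pseudocount or 2-fold from each of 180 and 200 min can only take calls away. A lower fold or a lower limit on low values can only add them.

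Of the 37 named genes past 2-fold, 29 stayed so without 180 min; TKL2, FMP48, RPA135, TRM5, MET14, TSL1, MAK16 and RGI2 did not. All 37 stayed without 200 min, 35 with a pseudocount of 5 RPKM and 19 against the line. Of the higher genes, NSR1, ANS1, NOC4, RPA135, TRM5, SAM1, MET14, URA7, GUA1 and MAK16 fell under 2-fold against the line. So did the lower genes ERR1, RTN2, GIP2, FAT3, TKL2, FMP48, TSL1 and RGI2. NSR1 was then at 0.89 and SAM1 at 0.71. Medians of 8 lists, all near 0, changed sign under at least 1 alternative, as did 2 of the 43 named genes, GCN4 and ACT1. Genes not named by rule were not followed for this.

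With 1 library per time, scatter between cultures or preparations cannot be told apart from time. Depth limits genes of low level most: the largest counting SE was 0.56 among higher genes and 0.59 among lower genes.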

Other observations

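Several more genes past 2-fold above at 210 min are given here as values, chosen after they were seen. MCH5, a riboflavin transporter, stood at 21.7 RPKM at 180 min, 18.4 at 200 min, 52.7 at 210 min and 270 at 220 min. CTP1, the mitochondrial citrate carrier, stood at 80.0, 106, 211 and 486 RPKM. MAE1, the mitochondrial malic enzyme, stood at 38.8, 47.7, 87.5 and 370 RPKM, and ADH6, an NADPH-dependent alcohol dehydrogenase, at 151, 246, 423 and 1131 RPKM. HMT1, the main arginine methyltransferase for RNA-binding proteins, stood at 55.4, 66.8, 141 and 498 RPKM. Against 200 min alone CTP1 was at 0.99, MAE1 at 0.86 and ADH6 at 0.78 on the log2 scale. From the phosphate list of 27, PHO90, a low-affinity phosphate transporter, was the 1 gene past 2-fold, or 3.70%. It stood at 23.9, 32.8, 69.1 and 225 RPKM, with a log2 difference of 1.25. PHO87, of the same class, was at 0.21 and PHO84, the high-affinity transporter, at 0.22.

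Among transcription factors of stress, carbon and nitrogen none of 46 was past 2-fold, and the median was 0.02. The extremes were USV1, at 107 RPKM at 180 min, 93.1 at 200 min, 51.0 at 210 min and 3.51 at 220 min, and COM2, at 26.6, 29.7, 52.2 and 84.0 RPKM. XBP1, a repressor induced by stress and starvation, stood at 122, 115, 66.6 and 9.22 RPKM, a log2 difference of -0.82. Of 37 autophagy and vacuolar protease genes 34 were below 0, with a median of -0.28 and 1 past 2-fold below (2.70%), ATG29. Of the chaperones SSB1, which works on ribosomes, stood at 385, 487, 764 and 1848 RPKM, a log2 difference of 0.81, the largest of the 35 heat shock and chaperone genes. The 37 proteasome genes had a median of -0.09 and an SD of 0.09. Ergosterol synthesis, phospholipid synthesis, iron uptake and phosphate lists had medians of 0.06, 0.05, 0.04 and 0.01.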
